A study of Mus musculus with 8 samples.

Results

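The genes described here are 41 genes of the unfolded protein response and of protein folding in the endoplasmic reticulum (ER). They were measured by RNA-seq in Paneth cells sorted from Mll1+/- and Mll1-/- mice. They were taken as the rows of the count table whose gene identifiers map to 41 listed symbols, out of 53801 genes in the table. All 41 passed the filter on low counts and were tested, among 13439 genes tested in all. They fall into 9 chaperones and cofactors, 2 lectin chaperones, 4 disulfide isomerases, 4 stress sensors, 3 stress transcription factors and effectors, 7 genes of ER-associated degradation, 8 genes of the translocon, 3 of the signal peptidase and 1 of the oligosaccharyltransferase.

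Paneth cells were isolated from the small intestine of 4 β-catGOF; Mll1+/- mice (controls) and 4 β-catGOF; Mll1-/- mice (knockouts). All mice carried Lgr5-EGFP-IRES-CreERT2, which drives Cre from the Lgr5 promoter and recombines in a mosaic of crypts, and stabilized β-catenin (deletion of exon 3) was present in both genotypes, so the controls were heterozygous for Mll1 on a Wnt-high background and not wild type. The series description and the study's results give this background, while the sample labels give the Mll1 genotype alone and the methods paragraph on the sort names Lgr5-EGFP-IRES-CreERT2 and Mll1 flox alleles only. By the methods the genotypes were littermates, but the labels give no litter. Tamoxifen (1 mg by the labels) was injected on 3 consecutive days into young mice and the crypts were dissociated 10 days later. Viable EpCAM+ Cd24+ cells, stained for CD45 as well, were sorted into tubes that each gave 1 library. The sort named no marker of recombination, and the share of recombined cells in each library was not measured. From immunohistochemistry the paper reports that crypt cells of the knockouts, Paneth cells included, lacked Mll1 when they were sorted. The label numbers form 2 runs, called sets here, of which set 1 holds controls 1 and 2 with knockouts 1 and 2, and set 2 the others; what a run stands for is not given. A single animal number stands in the titles of both control 4 and knockout 4, and it was not used. The other libraries carry numbers of their own.

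The ER is where secreted proteins enter the secretory pathway. The translocon threads the growing chain into the lumen, signal peptidase removes its signal peptide, oligosaccharyltransferase attaches glycans, and chaperones and disulfide isomerases fold it. Misfolded chains are returned to the cytosol for degradation, and when they accumulate the sensors Ire1 (encoded by Ern1 and Ern2), Perk (Eif2ak3) and Atf6 switch on a transcriptional programme through Xbp1, Atf4 and cleaved Atf6, which raises the folding machinery. Paneth cells, which pack lysozyme and defensins into large granules, are among the intestinal cells known to depend on this programme.

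Total counts per library lay between 13037832 and 14380240, and the 41 genes held between 36154 and 55005 of them. Expression is given as CPM, counts scaled to a common library size with TMM factors (normalized CPM), and levels are compared between genes only after division by exon length in kilobases. Kmt2a, which encodes Mll1, was at 45.1, 37.2, 24.1 and 22.4 normalized CPM in controls 1 to 4 and 31.1, 25.7, 38.5 and 28.4 in knockouts 1 to 4, and since a transcript that lacks the deleted exons is still counted, this gene-level value does not check the deletion. All 10 Paneth markers examined were detected and together reached 33.0% to 51.0% of all counts. Of other cell types, 11 goblet markers summed to between 7370.0 and 17636 normalized CPM, 9 stem markers to between 322 and 1582, 10 enterocyte markers to between 135 and 335, 10 enteroendocrine markers to between 743 and 2600.4, 8 tuft markers to between 127 and 689.5, 9 immune markers to between 2.24 and 14.4 and 8 stromal markers to between 4.03 and 7.52, with no marker at 0 in all libraries. Most of the goblet sum was Spink4, without which the other 10 goblet markers summed to between 1163 and 3002. Knockout 3 stood apart, with 19662 genes detected against 22623 to 26074 in the other 7 libraries and a TMM factor of 0.632 against 0.822 to 1.34. For genes printed library by library, the log2 fold change is therefore also given without knockout 3 where its sign or size turned on it. For the other genes only the fit with all libraries is given. Leaving out control 3 moved the median of the 41 genes the other way (to 0.17), so values without knockout 3 show only part of the dependence. In bulk RNA, fewer cells of a type and less RNA per cell cannot be told apart.

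The question was whether expression of the folding and stress genes differed between knockouts and controls. By edgeR's quasi-likelihood test, 0 of the 41 genes met the limits of 0.05 on the adjusted p and 0.5 on the absolute log2 fold change, where 0.186% of all tested genes did, and DESeq2's Wald test also called 0 of the 41. At an unadjusted p under 0.05 the count was 0 as well, against 4.35% of all genes higher and 2.53% lower in knockouts. For each of the 41 genes the 4 knockouts overlapped the 4 controls, while over all genes 2.59% lay wholly above and 1.93% wholly below the controls. The smallest unadjusted p was 0.17, for Pdia3, and adjusted p-values lay between 0.887 and 0.998. A p that misses the threshold does not show equality, and the 95% intervals give what the data allow.

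**Figure D1:**
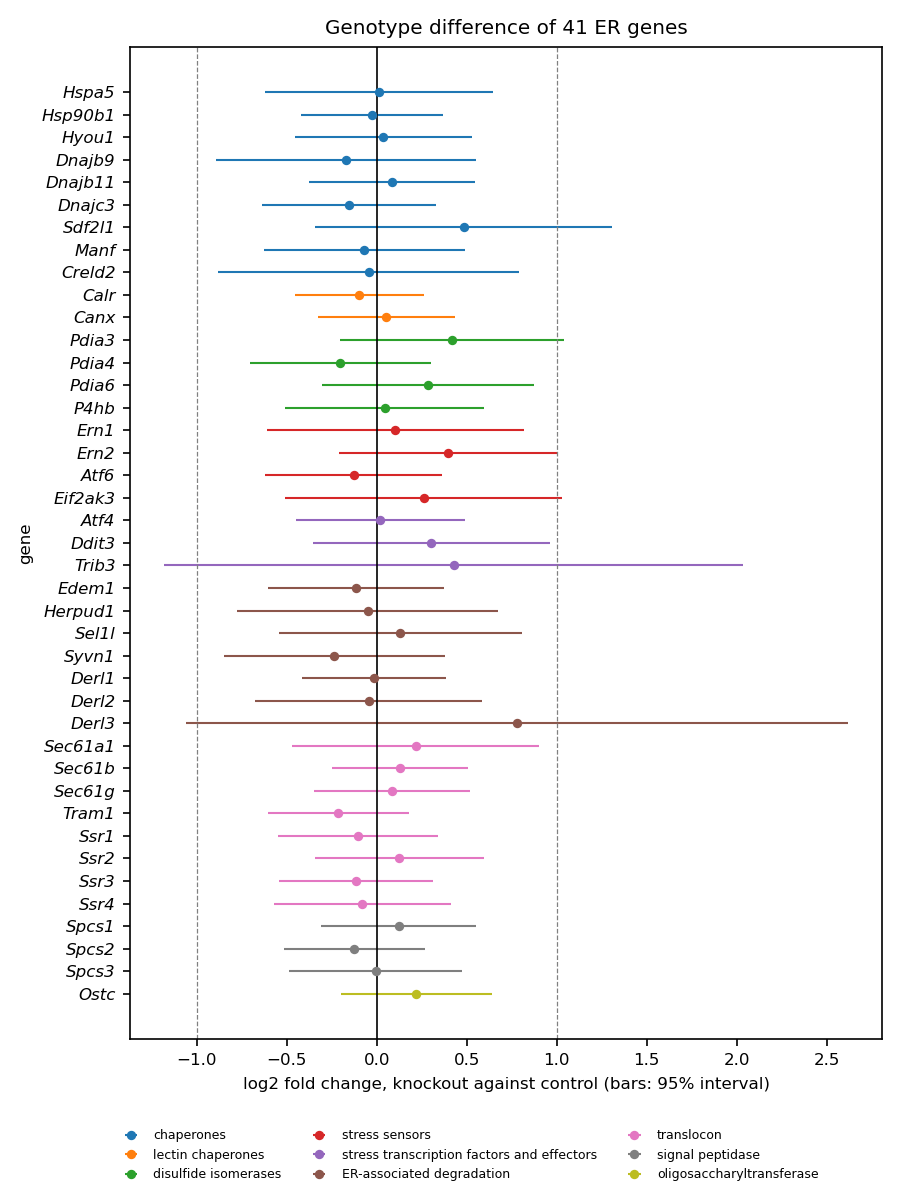
Log2 fold change of each of the 41 genes, knockout against control (points, edgeR, 4 libraries per genotype), with 95% intervals as bars and colours by role; dashed lines mark a change of 1 on the log2 scale. All intervals span 0, and those of Trib3 and Derl3 are the widest.

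The estimates were centred near 0. The median log2 fold change of the 41 genes was 0.02, beside 0.01 over all genes, with 22 genes higher and 19 lower in knockouts, and the estimates ranged from -0.24 (Syvn1, a ubiquitin ligase of the degradation pathway) to 0.78 (Derl3). The 95% interval lay within 1 log2 unit of 0 for 35 of 41 genes (85.4%, beside 45.6% of all genes). For these, a doubling or a halving between the sorted populations was outside it. Only 6 of 41 (14.6%, beside 4.99%) had an interval within 0.5. Summed over all 41 genes, expression was 3244 ± 576 normalized CPM in controls and 3292 ± 790.1 in knockouts (SD, n = 4 each). By role, the median log2 fold change was -0.03 for the chaperones, -0.02 for the lectin chaperones, 0.17 for the isomerases, 0.18 for the sensors, 0.30 for the stress factors, -0.04 for the degradation genes, 0.00 for the translocon and -0.01 for the signal peptidase. Those of the sensors and stress factors leaned on knockout 3. Without it Ern1, Eif2ak3, Atf4 and Trib3 turned negative and Atf6 stayed negative, while Ern2 and Ddit3 stayed positive. Role medians without that library are not given here. The median over the 41 genes was -0.15 without knockout 3 (9 of 41 higher) and 0.17 without control 3 (34 of 41 higher), and scaling by library totals in place of TMM factors moved it to 0.22, with 39 of 41 higher, and the median of all genes to 0.25.

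Levels per kilobase spanned a wide range. P4hb, a disulfide isomerase that is also the beta subunit of prolyl 4-hydroxylase, was highest at 191 ± 28.8 normalized CPM per kb in controls (SD, n = 4), and ranked 126th of all genes. Hspa5 (68.8 ± 25.2) and Sec61b (67.8 ± 7.21) followed and did not differ beyond their spread, and the next was Calr at 46.7 ± 6.32. From Hsp90b1 (43.6 ± 6.03) through Ssr4, Spcs1 and Tram1 (42.1 ± 7.02) the neighbours in the order again lay within each other's spread. At the low end were Ern1 (1.28 ± 0.525), Eif2ak3 (1.26 ± 0.475), Derl3 (0.496 ± 0.327) and Trib3 (0.493 ± 0.303), where Ern1 and Eif2ak3 did not differ beyond their spread, nor did Derl3 and Trib3. In knockouts the order began with P4hb at 197 ± 68.9, Sec61b at 74.3 ± 13.2 and Hspa5 at 69.4 ± 22.5, so Sec61b and Hspa5 changed places within their error.

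**Figure D2:**
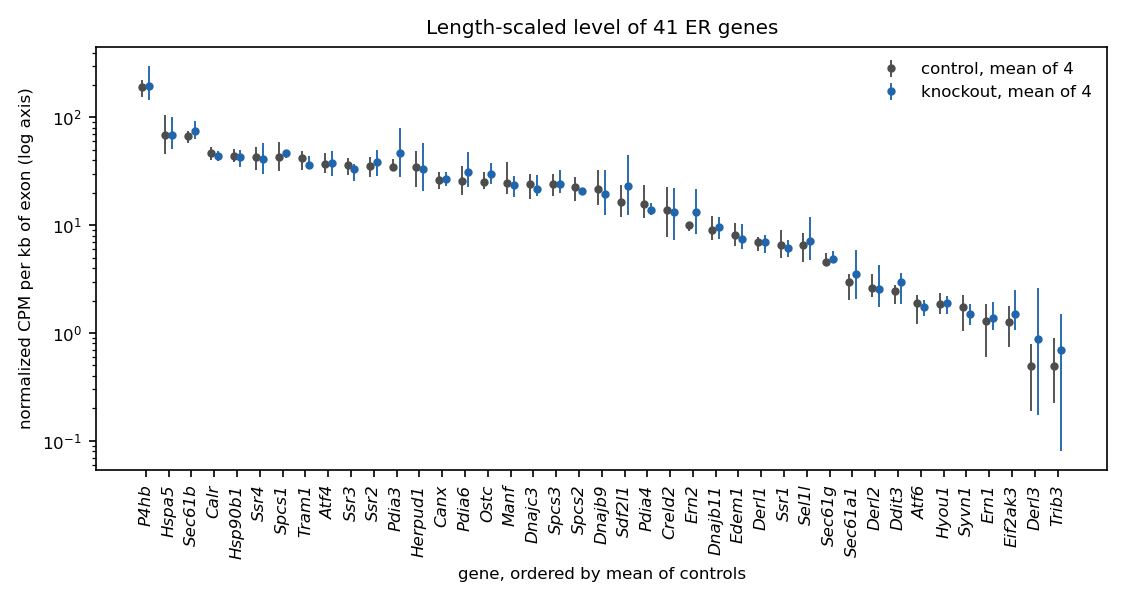
Mean level of each gene per kilobase of exon (log axis) in 4 controls (grey) and 4 knockouts (blue), ordered by the controls; bars run from the lowest to the highest library. P4hb stood alone at the top, and Derl3 and Trib3 were the lowest in both genotypes.

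Hspa5 encodes BiP, the main Hsp70 chaperone of the ER lumen, which also holds the stress sensors inactive. It lies on chr2:34771970-34777547 (mm10) and was at 244, 194, 441 and 285 normalized CPM in controls 1 to 4 and 229.9, 303, 424 and 217 in knockouts 1 to 4. Control 3 and knockout 3 were the highest of their genotypes and the ranges overlapped almost fully, with a log2 fold change of 0.01 (SE 0.29, 95% interval -0.62 to 0.65). The estimate was -0.22 without knockout 3, 0.28 without control 3 and 0.05 without both. Sdf2l1, a cofactor of BiP, had the largest estimate of the chaperones and was at 13.2, 13.9, 25.9 and 19.8 normalized CPM in controls 1 to 4 and 13.7, 22.0, 49.3 and 17.4 in knockouts 1 to 4. Knockout 3 lay far above all other libraries, and the log2 fold change of 0.48 (SE 0.38, 95% interval -0.34 to 1.31) became -0.04 without it. The other 7 genes of the group, namely Hsp90b1 (Grp94), Hyou1 (the nucleotide exchange factor Grp170), the J-domain cochaperones Dnajb9, Dnajb11 and Dnajc3, and the secreted stress proteins Manf and Creld2, had log2 fold changes from -0.17 (Dnajb9) to 0.08 (Dnajb11). These estimates include libraries that stood high. Dnajb9 was at 82.7 normalized CPM in knockout 3, beside 31.8 to 47.2 in the other knockouts, and at 83.6 in control 3, beside 39.0 to 58.4. Creld2 was at 30.5 in knockout 3, beside 9.89 to 19.4, and at 31.1 in control 3, beside 10.6 to 18.4. Of the exon bases of Hsp90b1, 10.3% overlap a gene on the other strand.

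The promoters of these genes show what they share in sequence. The ER stress response element (ERSE), to which Atf6 and Xbp1 bind together with NF-Y, is written CCAAT, then 9 bases, then CCACG. RefSeq promoters (GRCm38.p6, 250 bases before to 50 after the annotated start) were matched for 31 of the 41 genes, and an exact ERSE on either strand was found in 9 of them, beside 39 of 32851 promoters in all (0.119%) and 0 of 82 other ER genes with a promoter. Here and below, listed genes count once if any of their promoters holds the motif, while all promoters are counted singly. Since ERSE was defined on promoters of genes such as Hspa5, Hsp90b1 and Calr, which are in the list, the share among the 41 genes is a description. The 10 elements start between 44 and 212 bases before the start, 6 on the strand of the gene and 4 on the other, and Hsp90b1 holds 1 on each. They are printed to show the conserved ends and the variable spacer, in capitals with 5 bases on each side, 5′ to 3′ on the strand of the gene. On the other strand the element reads CGTGG, 9 bases, ATTGG.
Calr, chr8:84847070-84847098, minus strand: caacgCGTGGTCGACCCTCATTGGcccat
Canx, chr11:50325795-50325823, minus strand: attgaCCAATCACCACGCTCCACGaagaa
Creld2, chr15:88819515-88819543, plus strand: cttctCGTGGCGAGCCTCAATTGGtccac
Derl3, chr10:75893237-75893265, plus strand: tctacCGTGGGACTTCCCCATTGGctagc
Dnajc3, chr14:118937822-118937850, plus strand: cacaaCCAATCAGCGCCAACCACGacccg
Hsp90b1, chr10:86705633-86705661, minus strand: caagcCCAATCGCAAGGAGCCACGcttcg
Hsp90b1, chr10:86705528-86705556, minus strand: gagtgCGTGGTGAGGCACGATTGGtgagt
Hspa5, chr2:34772020-34772048, plus strand: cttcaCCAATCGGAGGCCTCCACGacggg
Pdia6, chr12:17266486-17266514, plus strand: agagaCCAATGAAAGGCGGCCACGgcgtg
Syvn1, chr19:6046527-6046555, plus strand: cgcaaCCAATCGGCGGTAGCCACGggaac
Except for that of Hspa5, which falls in exon sequence of the gene model used for counting, all elements lie upstream of the counted gene. No ERSE was found in these windows for Sdf2l1, P4hb, Pdia3 or Herpud1, and the promoters of Ostc, Ern2, Atf6, Derl1, Sec61a1, Ssr2, Spcs3, Manf, Hyou1 and Tram1 were not analysed here. A shorter relative, ERSE-II (ATTGG, 1 base, CCACG), was present in Herpud1 at chr8:94386372-94386392 as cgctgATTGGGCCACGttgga and, after its start, in Dnajb11, beside 0.0365% of all promoters and 1 of 82 of other ER genes. Herpud1 and Trib3 each held the amino acid response motif TGATGNAA (3.97% of all promoters and 10 of 82 of other ER genes), and no matched promoter of the 41 genes held TGACGTGG, the core of the unfolded protein response element (0.676% of all and 4 of 82 of other ER genes). The 9 genes with an ERSE had a median log2 fold change of -0.03 and the 22 without it 0.06.

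Calr and Canx are the lectin chaperones that retain glycoproteins until they are folded, and Calr had the narrowest interval of the 41 genes. Calr was at 146, 117, 154 and 121 normalized CPM in controls 1 to 4 and 121, 140.1, 129 and 114 in knockouts 1 to 4. No library stood apart in either genotype, and the log2 fold change was -0.10 (SE 0.16, 95% interval -0.45 to 0.26). For Canx, with 102 to 145 normalized CPM in controls and 108 to 148 in knockouts, it was 0.05 with an interval from -0.33 to 0.43.

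Among the disulfide isomerases, Pdia3, which works with Calr and Canx on glycoproteins and in the loading of MHC class I, had the smallest p of all 41 genes. On chr2:121413775-121438687 (mm10), it was at 101, 101, 130.2 and 104 normalized CPM in controls 1 to 4 and 115, 129, 250.0 and 87.7 in knockouts 1 to 4. Knockout 3 was far above the next highest library, control 3, while knockout 4 was the lowest of all 8. The log2 fold change was 0.42 (SE 0.29, 95% interval -0.21 to 1.04), and 0.02 without knockout 3. The exact permutation p was 0.514 (two-sided). P4hb was at 441, 531, 575 and 638 normalized CPM in controls 1 to 4 and 492, 494, 854 and 414 in knockouts 1 to 4, where knockout 3 was again the highest and knockout 4 the lowest library. Its log2 fold change was 0.04 (SE 0.25, 95% interval -0.51 to 0.60), or -0.23 without knockout 3. Pdia6 was higher (0.29) and Pdia4 lower (-0.20) in knockouts, neither beyond the spread. For Pdia6 only knockout 3 (181 normalized CPM) exceeded the controls (71.0 to 132), while knockouts 1, 2 and 4 were at 85.6, 96.1 and 104. The isomerases did not move together in knockout 3, since the length-scaled ratio of Pdia3 to Pdia4 was 6.02 there, while it was 2.13 to 2.94 in knockouts 1, 2 and 4, and 1.76 to 2.84 in controls.

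The 4 stress sensors were all expressed. Ern2, the Ire1 form restricted to mucosal epithelia, had the highest length-scaled level of the 4, and exceeded the ubiquitous form Ern1 by 4.76- to 16.9-fold per kilobase across the 8 libraries. Ern2 was at 29.9, 30.2, 26.2 and 31.8 normalized CPM in controls 1 to 4 and 24.5, 26.5, 64.4 and 40.9 in knockouts 1 to 4. The controls lay close together, knockouts 3 and 4 were above all of them and knockout 1 was below, and the log2 fold change was 0.40 (SE 0.28, 95% interval -0.21 to 1.01), or 0.05 without knockout 3. Ern1 was at 9.97, 4.92, 15.2 and 11.9 normalized CPM in controls 1 to 4 and 11.2, 9.53, 15.7 and 8.80 in knockouts 1 to 4, so that knockouts 1, 2 and 4 lay inside the range of the controls and knockout 3 just above it, with a log2 fold change of 0.10 (SE 0.33, 95% interval -0.61 to 0.82), or -0.10 without that library. Atf6, the sensor that is cleaved in the Golgi to a transcription factor, was at 16.7, 11.3, 20.7 and 20.9 normalized CPM in controls 1 to 4 and 15.0, 16.8, 18.6 and 13.4 in knockouts 1 to 4. Both genotypes covered a similar range, and the log2 fold change was -0.13 (SE 0.23, 95% interval -0.62 to 0.36), or -0.21 without knockout 3. Eif2ak3, the kinase Perk that dampens translation, was at 4.45, 6.03, 8.97 and 10.8 normalized CPM in controls 1 to 4 and 6.95, 6.43, 15.0 and 8.07 in knockouts 1 to 4. Control 1 was the lowest and knockout 3 the highest library, and the log2 fold change was 0.26 (SE 0.35, 95% interval -0.51 to 1.03), or -0.08 without knockout 3. Of the exon bases of Eif2ak3, 8.05% overlap a gene on the other strand, and whether counting used strand is not given in the sources used here.

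Atf4 is translated when Perk is active and drives the targets Ddit3 (Chop), which promotes cell death, and Trib3, which feeds back on Atf4. Atf4 mRNA was at 71.3, 78.4, 92.3 and 109.7 normalized CPM in controls 1 to 4 and 73.3, 67.2, 115 and 102 in knockouts 1 to 4. Libraries 3 and 4 were above libraries 1 and 2 in both genotypes, which divides them as the 2 sets do, and the log2 fold change was 0.02 (SE 0.21, 95% interval -0.45 to 0.49), or -0.13 without knockout 3. Ddit3 was at 3.20, 4.21, 4.76 and 4.50 normalized CPM in controls 1 to 4 and 6.24, 5.34, 5.76 and 3.21 in knockouts 1 to 4. Knockouts 1 to 3 were above all controls and knockout 4 was among the lowest, with a log2 fold change of 0.30 (SE 0.30, 95% interval -0.36 to 0.96) and an exact permutation p of 0.314 (two-sided). A further identifier of the same symbol shares 6.13% of its exon bases. Trib3 was at 1.19, 0.476, 0.628 and 1.89 normalized CPM in controls 1 to 4 and 1.37, 0.172, 3.17 and 1.15 in knockouts 1 to 4, from 3 to 27 counts per library, and the spread within each genotype exceeded the difference between them. Its log2 fold change was 0.43 (SE 0.74, 95% interval -1.18 to 2.04), or -0.24 without knockout 3. Both effectors were scarce beside Atf4, and the length-scaled ratio of Ddit3 to Atf4 was 0.0564 to 0.0738 in controls and 0.0435 to 0.117 in knockouts.

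Degradation genes include the lectin Edem1, the membrane adaptor Herpud1, the ligase complex of Sel1l and Syvn1, and the derlins Derl1, Derl2 and Derl3, which help move chains out of the ER. Herpud1 had the highest length-scaled level of these and was at 53.0, 65.5, 90.4 and 115 normalized CPM in controls 1 to 4 and 53.9, 48.5, 134 and 76.1 in knockouts 1 to 4. Control 4 and knockout 3 were the highest of their genotypes, and the log2 fold change was -0.05 (SE 0.33, 95% interval -0.78 to 0.68), or -0.45 without knockout 3. Derl3, a derlin of highly secretory cells, was at 0.376, 0.476, 1.53 and 1.58 normalized CPM in controls 1 to 4 and 0.891, 0.344, 5.17 and 0.667 in knockouts 1 to 4. Knockout 3 alone exceeded the controls, the other 3 knockouts were below control 3, and the log2 fold change of 0.78 (SE 0.84, 95% interval -1.06 to 2.62) turned to -0.62 without knockout 3. Syvn1 was lowest in control 1 (5.01 normalized CPM) and highest in control 4 (10.8), and its log2 fold change was -0.24. Edem1, Sel1l, Derl1 and Derl2 had log2 fold changes between -0.11 and 0.13. Of these, Sel1l was at 102.5 normalized CPM in knockout 3, beside 40.6 to 58.1 in the other knockouts. In control 3 it was at 72.9, beside 39.04 to 66.5. Derl2 was at 34.3 in knockout 3, beside 13.95 to 18.1, and at 28.4 in control 3, beside 17.2 to 20.4. Edem1 was at 65.7 in knockout 3, beside 38.9 to 47.7, and at 67.04 in control 3, beside 40.99 to 58.5. Derl1 did not stand high in knockout 3 (21.8, beside 18.4 to 26.9). Their fits without knockout 3 are not given.

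**Figure D3:**
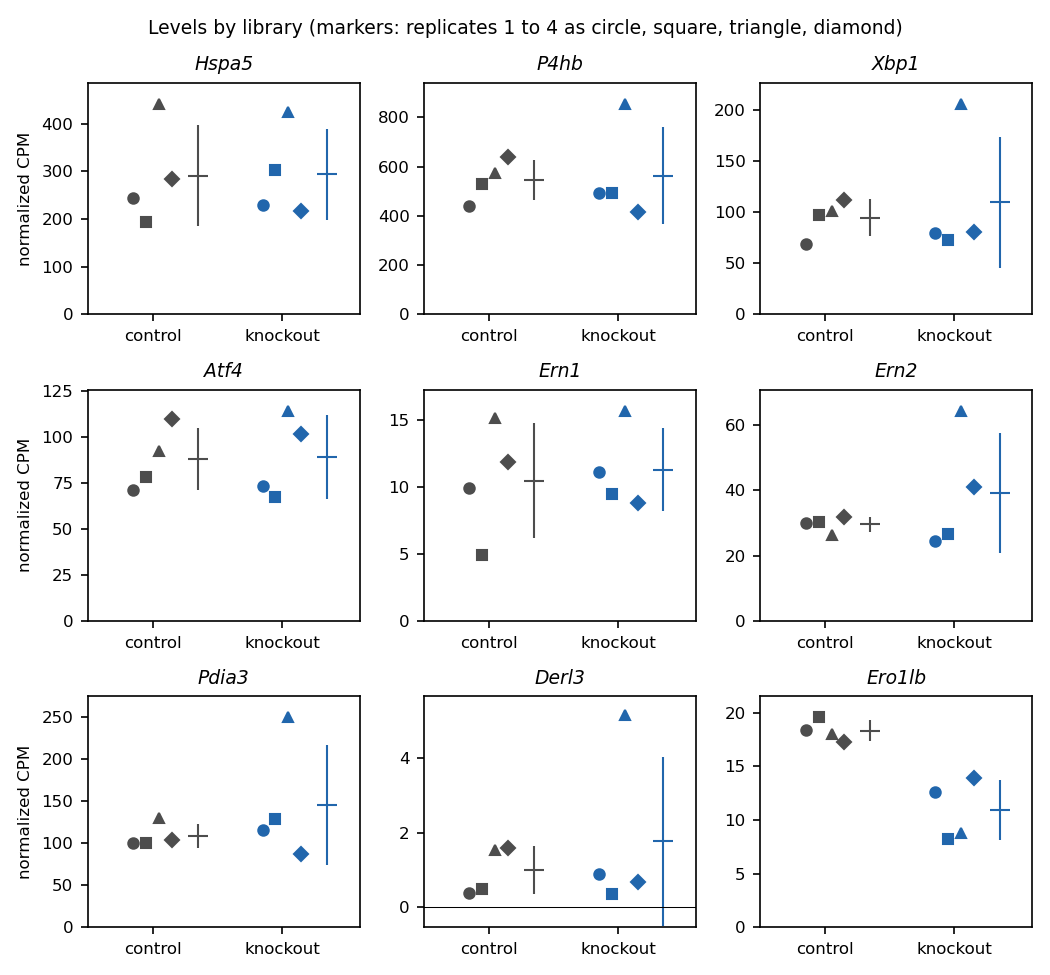
Normalized CPM of single genes by library in controls (grey) and knockouts (blue), with the mean and SD (n = 4) to the right of each genotype. Knockout 3 (blue triangle) was the highest library for P4hb, Xbp1, Ern2, Pdia3 and Derl3, and Ero1lb was lower in all 4 knockouts than in any control.

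For the translocon, Sec61b, the small subunit beta of the channel, was at 73.2, 89.1, 94.7 and 87.8 normalized CPM in controls 1 to 4 and 82.9, 96.9, 117 and 80.6 in knockouts 1 to 4. The controls other than control 1 lay within the range of the knockouts, and the log2 fold change was 0.13 (SE 0.17, 95% interval -0.25 to 0.51), or 0.01 without knockout 3. Sec61a1, the pore itself, was at 13.7, 20.4, 24.0 and 22.5 normalized CPM in controls 1 to 4 and 16.4, 14.1, 39.7 and 23.9 in knockouts 1 to 4. Knockout 3 stood above the rest, and the log2 fold change was 0.22 (SE 0.31, 95% interval -0.47 to 0.90), or -0.15 without it. Of its exon bases 8.16% overlap a gene on the other strand. The other members of the group, the third subunit Sec61g, the signal-sequence helper Tram1 and the TRAP subunits Ssr1 to Ssr4, had log2 fold changes from -0.21 (Tram1) to 0.13 (Ssr2, with 12.8% of its exon bases shared with a gene on the other strand). None of the 8 intervals reached 1 in either direction.

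Signal peptidase was represented by Spcs1, Spcs2 and Spcs3. Spcs1 was at 49.5, 57.6, 91.0 and 68.2 normalized CPM in controls 1 to 4 and 64.9, 74.3, 77.2 and 73.2 in knockouts 1 to 4. Knockouts were close together and within the range of the controls, and the log2 fold change was 0.12 (SE 0.20, 95% interval -0.31 to 0.55), while 16.3% of its exon bases overlap Glt8d1 on the other strand. Spcs2 was at 71.1, 95.1, 117 and 101 normalized CPM in controls 1 to 4 and 84.7, 93.7, 94.0 and 80.9 in knockouts 1 to 4, with control 3 highest and control 1 lowest of all libraries. Its log2 fold change was -0.12 (SE 0.18, 95% interval -0.51 to 0.27). Ostc, a subunit of the oligosaccharyltransferase that works at the translocon, was at 59.9, 62.0, 86.0 and 71.9 normalized CPM in controls 1 to 4 and 73.0, 82.7, 105 and 65.7 in knockouts 1 to 4. Knockout 3 was the highest library and control 1 the lowest, with a log2 fold change of 0.22 (SE 0.19, 95% interval -0.20 to 0.64), or 0.07 without knockout 3.

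The libraries differed more than the genotypes did. Control 3 was the highest control for 30 of 41 genes (73.2%, beside 24.9% of all genes), with a median of 1.33-fold over the other 3 controls, where the median of all genes was 1.01-fold. Knockout 3 was the highest knockout for 32 of 41 (78.0%, beside 35.7% of all genes) and the lowest for 0, with a median of 1.45-fold over the other 3 knockouts, where the median of all genes was 0.955-fold. Control 1 was the lowest control for 25 genes (61.0%, beside 26.8% of all genes) and knockout 4 the lowest knockout for 22 (53.7%, beside 21.0%). All 9 chaperones were highest in control 3 among the controls, led by Creld2 (2.15-fold over the other 3), Manf (1.93-fold) and Hspa5 (1.85-fold). In knockout 3 the degradation genes had the largest median of the roles, 2.12-fold over the other knockouts. Of single genes, Derl3 (5.10-fold), Trib3 (2.88-fold), Sdf2l1 (2.79-fold), Herpud1 (2.29-fold) and Pdia3 (2.28-fold) stood highest, while Pdia4 (0.954-fold), Derl1 (0.943-fold), Sec61g (0.930-fold) and Canx (0.926-fold) lay below the average of the other knockouts, though for none of these was it the lowest. All of these values hold for TMM scaling. These are values of single libraries, with no test.

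**Figure D4:**
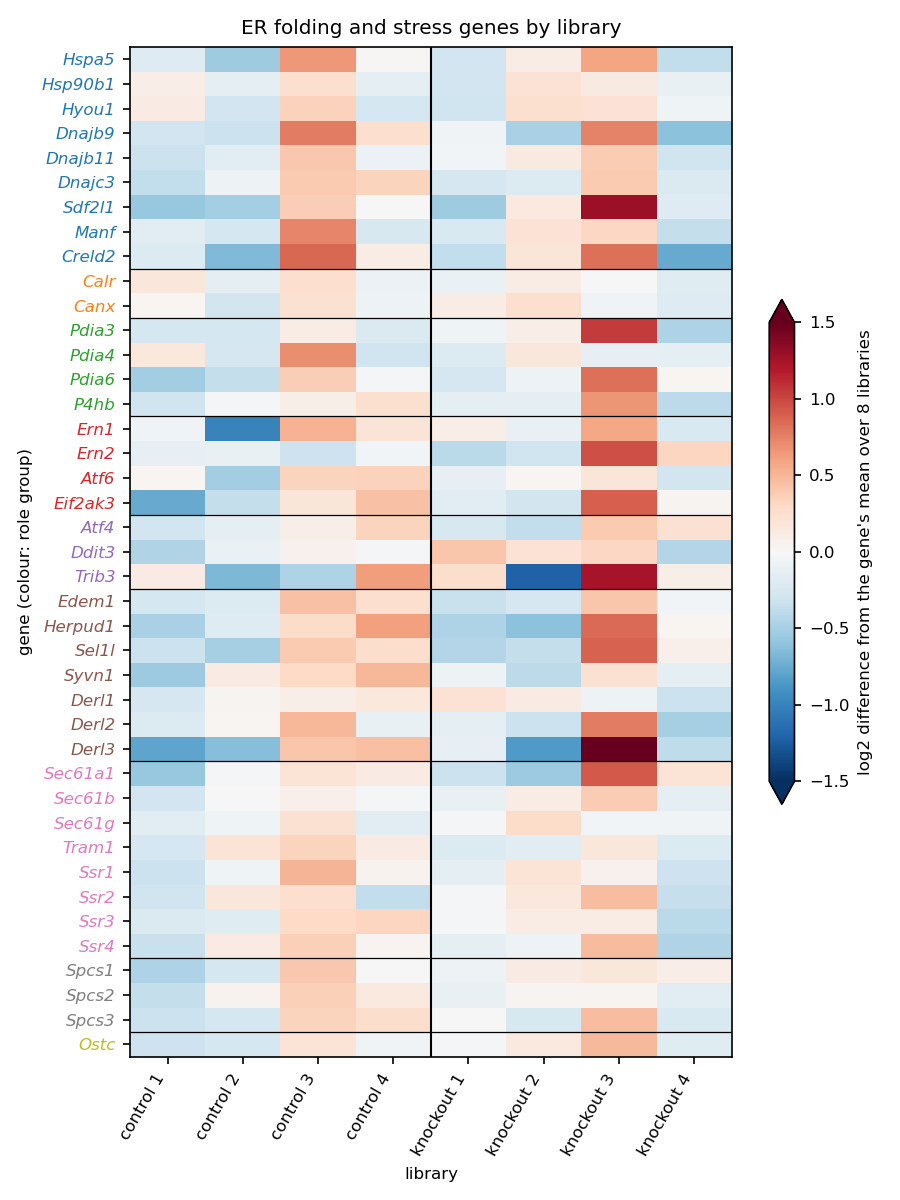
Log2 difference of each gene from its mean over the 8 libraries (red above, blue below; the scale is capped at 1.5), with genes grouped by role and the genotypes divided by the vertical line. Control 3 and knockout 3 were mostly red, and knockout 4 and control 1 mostly blue.

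The pattern depended on the scaling. With DESeq2's size factors, or with library sizes that leave out the 50 most abundant genes, control 3 was again highest for 30 and knockout 3 for 32 of 41 genes. With plain library totals knockout 3 was highest for 3 and lowest for 26, at a median of 0.719-fold of the other knockouts, where all genes had a median of 0.519-fold, and control 3 was highest for 17. As a share of all counts the 41 genes together held 0.281% in knockout 3, while knockouts 1, 2 and 4 held 0.330% to 0.422% and controls 0.262% to 0.327%. The 50 most abundant genes took 87.8% of the counts in knockout 3, beside 76.3% to 84.7% in the other libraries.

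Marker levels of several cell types, as normalized CPM, differed in the same libraries. Knockout 3 had the lowest TMM factor (0.632), which raises its normalized CPM relative to plain library totals. Apart from the Paneth share of counts, the marker sums and rankings below were not repeated with library totals. The 10 Paneth markers summed to 287555, 441639, 580068 and 564237 normalized CPM in controls 1 to 4 and to 301733, 281417, 806409 and 355429 in knockouts 1 to 4, and the 41 ER genes summed to 2714, 2869, 3984 and 3409.6 in controls and 2855, 3158, 4443 and 2709.6 in knockouts. Knockout 3 was the highest knockout for 10 of 10 Paneth markers, while control 3 was the highest control for 4 of 10. Without Defa24, the most abundant marker, the other 9 summed to 182740.1 in control 3 and to more, 204012, in control 4, and the share of all counts was also higher in control 4 (49.7%, beside 47.7% in control 3). The 11 goblet markers summed to 16460 in control 3 and 17636 in knockout 3, with up to 10745 in the other libraries, and 7 and 8 of 11 were highest there within their genotype. Without Spink4, the most abundant, the other 10 summed to 3002 in control 3 and 2701 in knockout 3, with up to 1850 in the other libraries. Of 9 stem markers, 6 were lowest in control 3 and 8 in knockout 3 within their genotype, and of 8 tuft markers 2 and 5 were. The share of all genes lowest in these libraries is not given here, and knockout 3 had the fewest genes detected (19662). The stem sum was 756 in control 3 and 322 in knockout 3, of which Olfm4 was 448 and 103. Without Olfm4, control 2 (302) was lowest among the controls and control 3 next (309), while knockout 3 (219) remained lowest among the knockouts. The enteroendocrine sum in knockout 3 (2600.4) was mostly Reg4 (2428), and the other 9 markers summed to 172 there, between knockout 2 (45.5) and knockouts 1 (187) and 4 (215), and to 819 in control 3, above the other controls. Between genotypes, 6 of 10 tested enteroendocrine markers had an unadjusted p under 0.05, all lower in knockouts, as had 5 of 9 tested stem markers, with 2 higher and 3 lower. The same held for 2 of 11 goblet and 2 of 7 tested enterocyte markers, all lower, for 1 of 6 proliferation genes, higher, and for 0 of 10 Paneth and 0 of 7 tested tuft markers, where over all genes 4.35% were higher and 2.53% lower. The part of these differences in the ER gene levels was not tested.

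**Figure D5:**
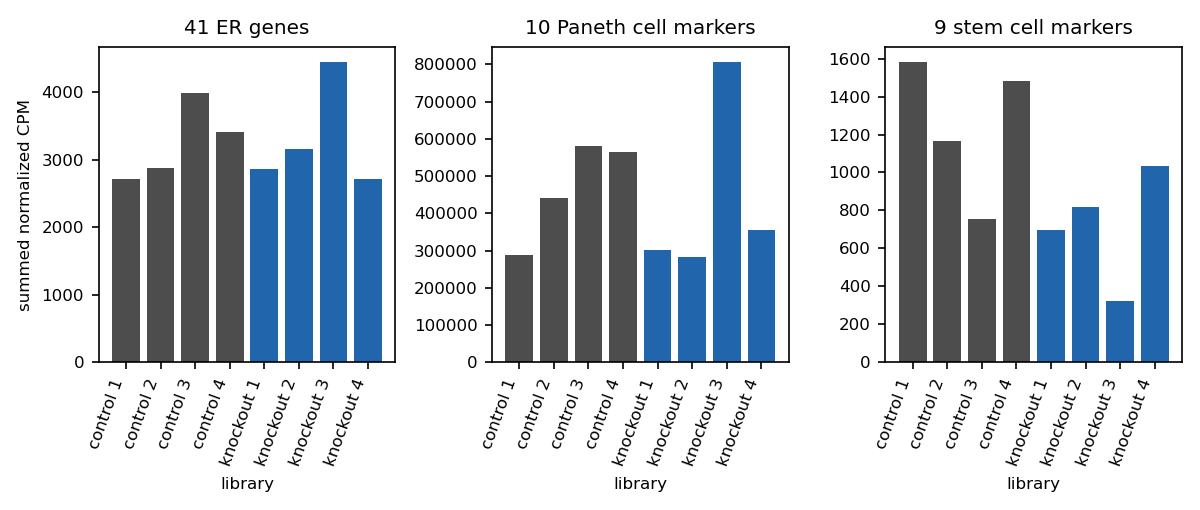
Summed normalized CPM of the 41 ER genes, of 10 Paneth cell markers and of 9 stem cell markers in each library (controls grey, knockouts blue). Replicate 3 of each genotype was highest for the ER genes and the Paneth markers and lowest of its genotype for the sum of the stem markers.

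The genes with and without an ERSE had similar medians in these 2 libraries. In control 3 the median log2 difference from the other controls was 0.43 for the 9 genes with the element and 0.41 for the 22 without it. In knockout 3 it was 0.62 and 0.64. Within set 1 the median knockout-minus-control difference of the 41 genes was 0.15, with 28 higher, and within set 2 it was -0.09, with 14 higher, each from 2 libraries per genotype and with no test.

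The rest of the pathway was followed with a list of 99 other ER and stress genes, of which 95 were tested. By edgeR 0 passed both thresholds, as by DESeq2's Wald test, and 3 (3.16%, beside 4.35% of all genes) had an unadjusted p under 0.05 with higher and 1 (1.05%, beside 2.53%) with lower levels in knockouts. In 3 genes (3.16%, beside 1.93% of all genes) the knockouts lay wholly below the controls. The gene that met both rules, and was picked from the list by them, was Ero1lb, the ER oxidase Ero1 beta, which reoxidizes disulfide isomerases and is abundant in cells that secrete. Ero1lb was at 18.4, 19.6, 18.0 and 17.3 normalized CPM in controls 1 to 4 and 12.7, 8.27, 8.81 and 13.9 in knockouts 1 to 4. All 4 knockouts were below all 4 controls, and the log2 fold change was -0.75 (SE 0.21, 95% interval -1.21 to -0.28), with an unadjusted p of 0.00464 and an adjusted p of 0.387 in edgeR's quasi-likelihood test. Over 15 alternatives its log2 fold change stayed between -0.89 and -0.48, with adjusted p-values from 0.109 to 0.882. The other 2 wholly lower genes of the list, Srp68 and Man1b1, had an unadjusted p above 0.05 and were named after their values were seen.

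Xbp1, whose mRNA is spliced by Ire1 into the form that encodes the active factor, was at 69.3, 97.3, 101 and 112 normalized CPM in controls 1 to 4 and 79.4, 72.9, 206 and 81.1 in knockouts 1 to 4. Knockout 3 was the highest library by a wide margin, the other 3 knockouts lay in the lower part of the range of the controls, and the log2 fold change was 0.21 (SE 0.32, 95% interval -0.50 to 0.92), or -0.29 without knockout 3. Gene counts do not separate spliced from unspliced Xbp1. Of the 22 tested integrated stress response targets, genes that Atf4 is known to drive such as those for amino acid synthesis and transport, 19 were higher and 3 lower in knockouts, with a median log2 fold change of 0.37 and 0 past the threshold. Without knockout 3 this became 9 higher and 13 lower, with a median of -0.06. Without control 3 it was 19 higher and 3 lower (median 0.36), and without both 8 higher and 14 lower (median -0.10). In that list Atf3, a stress-induced transcription factor chosen after its values were seen, was at 11.2, 50.5, 18.4 and 25.5 normalized CPM in controls 1 to 4 and 47.0, 60.7, 54.7 and 71.9 in knockouts 1 to 4. Its log2 fold change was 1.15 (SE 0.37, 95% interval 0.34 to 1.96), with an unadjusted p of 0.00965 and an adjusted p of 0.473 in edgeR's test, and control 2 lay within the range of the knockouts. With no filter on low counts it passed both thresholds. The genes of the Xbp1 arm, other folding enzymes, other degradation genes, and other targeting and glycosylation genes had medians of 0.15, 0.04, 0.01 and 0.06, each with 0 past the thresholds. Without knockout 3 these turned to -0.18, -0.13, -0.19 and -0.09, and over all other ER genes the split went from 62 higher and 33 lower to 24 higher and 72 lower. Without control 3 that split was 71 higher and 25 lower, and with control 3 and knockout 3 both left out it was 38 higher and 58 lower. The direction thus depended on single libraries.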

How the data were processed

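RNA of 300 sorted Paneth cells per library was sequenced after Smart-seq2. GSNAP was the authors' aligner, on mm10, and featureCounts 1.6.3 assigned the uniquely mapped reads to genes of Ensembl release 92. The files hold these raw counts as deposited, with no normalization. The strand setting is not given in the sources used here. Groups follow the labelled genotype, and replicate numbers are names only. The 92 spike-in rows were left out.

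In R 4.3.3, edgeR 4.0.16 (TMM, robust quasi-likelihood fit) tested the 13439 genes that passed filterByExpr (minimum count 10, minimum total 15), and p-values were adjusted over all of them by Benjamini and Hochberg. Calls needed an adjusted p of at most 0.05 and an absolute log2 fold change of at least 0.5. The SE was approximated as the size of the log2 fold change over the square root of F, and intervals are at 95%. Permutation tests were exact and two-sided. The code was tested on simulated data. DESeq2 1.42.0, other library sizes, no filter, the library set as a block and leaving out libraries were alternatives. Promoters came from RefSeq (GRCm38.p6, windows of 300.0 bases) and tables were joined in Python 3.11.15 with pandas 2.3.3 and numpy 2.4.6. Per-library levels used a pseudocount of 0.5 where logs were taken. A count of 3 was worth 0.172 to 0.352 normalized CPM, and the common biological coefficient of variation was 0.376.

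Values per library are given for genes with an unadjusted p under 0.05 or without overlap between genotypes, for the gene with the highest level and the one with the largest change in each role, for the sensors, Atf4, Ddit3 and Trib3, and, of other ER genes, for Xbp1 and those without overlap and with an unadjusted p under 0.05. Atf3, which overlaps, was added after its values were seen. The genes and lists were chosen with earlier results of these data known.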

Additional observations from a re-analysis of the deposited data

Results flagged for a closer look

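In 7 of 88 groups of 4 libraries examined (the 41 genes and those named beside them, in each genotype), the highest library stood so far from the others that its gap to the nearest, as a share of the range, passed Dixon's 95% critical value. For independent, normally distributed values chance gives about 1 in 20, or 4 of these groups. The values here were not logged and the genes share the same libraries, so 4 is not a strict baseline. Knockout 3 was the library in 4 of the 7 and control 3 in 2. Dnajc3, a J-domain cochaperone, was at 151 normalized CPM in knockout 3 beside 96.9 to 99.97 in the other knockouts. Tram1, which helps signal sequences enter the translocon, was at 138 in knockout 3 beside 106 to 109. Xbp1 was at 206 in knockout 3 beside 72.9 to 81.1, and Derl3 at 5.17 beside 0.344 to 0.891. Manf, a secreted stress protein, was at 136 in control 3 beside 68.1 to 73.2 in the other controls, and Pdia3 at 130.2 beside 100.5 to 104. Sec61g, the gamma subunit of the translocon, was at 14.1 in knockout 2 beside 11.2 to 11.4. In knockout 3 the 10 Paneth markers took 51.0% of all counts, beside 37.6% to 43.2% in the other knockouts, and in control 3 47.7%, beside 33.0% to 49.7%. The part of this in the values above was not tested.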

How the results depend on the processing

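The 41 ER genes gave 0 calls in every alternative run. Their median log2 fold change lay between -0.15 and 0.17 over the fits that each left out 1 library, against a spread of 0.27 between libraries. With control 3 and knockout 3 both left out, an alternative chosen after seeing the data, it was -0.00 with 20 genes higher. With library totals without TMM factors, also added then, it was 0.22 with 39 higher. Of 21 genes recomputed singly, 15 changed sign in at least 1 alternative, and all 315 values stayed on their side of the threshold. With no filter, 1 ER gene of the 41, Pdia3, reached an unadjusted p under 0.05 (0.0465), and 1 other ER gene, Atf3, passed both thresholds (adjusted p 0.000117 in edgeR, over 37039 genes); the cause was not tested.

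Calls over all genes varied more. The count was 25 in the analysis reported, 290 with no filter, 138 with DESeq2's Wald test, 38 at 10% false discovery rate with no limit on the fold, 15 with library totals, 115 without both libraries, and 10 to 152 when 1 library was left out, the lowest without control 3 and the highest without knockout 3. The cause was not tested. No paired analysis was possible because the replicate numbers are names given in order, the labels share an animal number for only 1 pair, and they give no litter, although the methods call the genotypes littermates. The library set as a block gave 24 calls over all genes and 0 among the 41.

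Trib3 had 3 to 27 counts and Derl3 6 to 44 counts per library, and their intervals exceeded 1 log2 unit on both sides. The part of depth in this was not tested, and for Derl3 knockout 3 (5.17 normalized CPM) stood apart from the other knockouts.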
